A study of Mus musculus with 8 samples.

Results

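Rnf183, Rnf182, Rnf186, Rnf152 and Rnf223 encode a small family of RING-type ubiquitin ligases that are held in a membrane near the C-terminus. The members were taken by gene symbol from the platform annotation, and 4 of the 5 had a named spot, 1 spot each, among 20863 genes with a named spot. Rnf223 had no spot under its symbol and is not analysed here. The family was put together around Rnf183, which had been chosen by its log2 difference between these same mice, so all differences of the members between the groups are given as a description and without a test.

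RNA came from whole lungs of 4 mice that over-express Fra-2 (Fra-2 TG) and of 4 wild-type mice, and every mouse was 8 weeks old on a C57BL/6 background. Each lung was hybridised to 1 single-colour Agilent array, and the value of a spot is its intensity after normalization by the authors, given here as log2. Fra-2, encoded by Fosl2, is a subunit of the AP-1 transcription factor, and its over-expression in mice serves to model fibrosing and vascular lung disease. The promoter that drives the transgene and the number of founder lines are not given in the labels, which name no treatment for either group.

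A RING ligase brings a ubiquitin-conjugating enzyme to a target protein, and the ubiquitin it helps to attach can send that target to the proteasome or the lysosome or change where it sits. Rnf183 is best known from the kidney, where the osmotic stress factor NFAT5 drives it in collecting duct cells, and from the gut. Rnf186 is known from the gut epithelium and lies in the endoplasmic reticulum, Rnf152 lies on lysosomes and acts on the small GTPases that carry amino acid signals to the kinase complex mTORC1, and Rnf182 was described in the brain. The role of Rnf223 is little studied.

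Because Fra-2 acts through AP-1 sites, the sequence before the annotated starts of the members was searched for the AP-1 motif TGANTCA, which reads the same on both strands. The sequences are RefSeq's for GRCm38.p6 and cover the 250 bases before a start. All 5 members had at least 1 such window, 6 windows in all. Rnf183 has 2 annotated starts, both on the minus strand of chromosome 4. They are shown with the window of Rnf186, the other member with a match, and that of Rnf152, the member with the next largest difference in the lungs; all run 5′ to 3′, and capitals mark a match to the motif.
Rnf183, first start, chr4:62435251-62435500, minus strand: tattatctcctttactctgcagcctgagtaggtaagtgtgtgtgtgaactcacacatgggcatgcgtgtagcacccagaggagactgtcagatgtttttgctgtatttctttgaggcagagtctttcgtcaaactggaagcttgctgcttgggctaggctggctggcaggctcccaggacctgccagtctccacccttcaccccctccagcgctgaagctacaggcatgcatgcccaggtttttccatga
Rnf183, second start, chr4:62434641-62434890, minus strand: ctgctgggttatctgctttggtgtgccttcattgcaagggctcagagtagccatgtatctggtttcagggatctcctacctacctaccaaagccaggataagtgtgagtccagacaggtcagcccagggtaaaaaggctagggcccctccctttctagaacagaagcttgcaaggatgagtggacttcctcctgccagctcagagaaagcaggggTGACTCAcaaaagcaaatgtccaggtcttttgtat
Rnf186, chr4:138966869-138967118, plus strand: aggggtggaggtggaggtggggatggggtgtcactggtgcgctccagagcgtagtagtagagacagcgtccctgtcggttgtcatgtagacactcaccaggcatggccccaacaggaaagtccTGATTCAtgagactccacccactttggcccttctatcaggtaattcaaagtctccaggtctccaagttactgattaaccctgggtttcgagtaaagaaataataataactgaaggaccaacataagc
Rnf152, chr1:105356711-105356960, minus strand: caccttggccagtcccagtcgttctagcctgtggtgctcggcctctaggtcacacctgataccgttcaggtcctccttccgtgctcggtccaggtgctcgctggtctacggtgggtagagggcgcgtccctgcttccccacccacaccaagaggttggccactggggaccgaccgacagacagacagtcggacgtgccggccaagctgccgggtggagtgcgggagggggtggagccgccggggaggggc

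The match before the second start of Rnf183 lay 35 to 29 bases ahead of it, and that of Rnf186 lay 127 to 121 bases ahead of its start. N stood for any base, here and in the shares over all windows. The match read TGACTCA for Rnf183 and TGATTCA for Rnf186. The window of the first Rnf183 start and those of Rnf152, Rnf182 and Rnf223 held no match. Of all 32851 such windows, 6.75% held the motif, as did at least 1 window of 7.82% of 27025 genes. A search on both strands for the cyclic AMP element TGACGTCA (1.55% of windows), for the endoplasmic reticulum stress elements ERSE (0.113%) and TGACGTGG (0.563%) and for the NFAT5 element TonE (2.13%) found no match in any window of the members. A match is a run of letters and says nothing on binding in these lungs.

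The arrays shared 1 distribution, with a median intensity of 26.6 on each. The mean correlation with the other arrays of the group was 0.975 in Fra-2 TG mice 1 to 3 and 0.971 in Fra-2 TG mouse 4, against 0.973 in wild-type mice 1 to 3 and 0.966 in wild-type mouse 4, so both mice numbered 4 stood apart and the members' values without them are given too. A log2 level of 4.74, the median over all spots, served as a floor for dim signals. Fosl2 itself had 2 spots that ran opposite ways. The brighter one stood at 10.03, 9.42, 9.38 and 10.62 in Fra-2 TG mice 1 to 4, against 10.64, 10.12, 10.68 and 11.01 in wild-type mice, and the dimmer one at 6.35, 6.98, 6.68 and 7.85, against 3.44, 4.41, 4.65 and 5.58. Where on the transcript either spot binds is not stated in the sources used here, and neither spot alone checks the genotype.

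Rnf183 was read far above the floor in every Fra-2 TG lung and under it in every wild-type lung. Its log2 levels were 7.46, 8.20, 8.59 and 8.32 in Fra-2 TG mice 1 to 4, against 4.13, 4.31, 4.48 and 4.46 in wild-type mice 1 to 4. On the linear scale these were intensities of 176, 293, 385 and 319 in Fra-2 TG mice, against 17.5, 19.9, 22.4 and 21.9 in wild-type mice, the 4 wild-type values all under the array median. Fra-2 TG mouse 1 was the lowest of its group and still lay above every wild-type mouse by more than the spread of either group, so the groups did not overlap. The means were 8.14 ± 0.48 in Fra-2 TG lungs and 4.34 ± 0.16 in wild-type lungs (SD, n = 4 each), a difference of 3.80 (SE 0.24). With the wild-type values raised to the floor this is at least 10.6-fold.

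Over all genes 0.216% (45, or 17 to 38 with 1 mouse left out) passed the limma test at an adjusted p of 0.05, 0.125% higher and 0.0911% lower in Fra-2 TG lungs; no test of Rnf183 is read from this comparison, which brought it into view. Without both mice numbered 4 the difference of Rnf183 was 3.78, and with any 1 mouse left out it ran between 3.65 and 4.02. RNA from whole lung does not tell more cells that express a gene from more RNA in each such cell.

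Rnf152, the lysosomal member, came next. Its log2 levels were 5.60, 6.23, 5.95 and 5.89 in Fra-2 TG mice 1 to 4, against 5.14, 4.69, 4.41 and 5.25 in wild-type mice 1 to 4. All Fra-2 TG values lay above all wild-type values and above the floor, while wild-type mice 2 and 3 fell below the floor. The means were 5.92 ± 0.26 in Fra-2 TG lungs and 4.87 ± 0.39 in wild-type lungs (SD, n = 4 each), a difference of 1.05 (SE 0.22), at least 1.94-fold with the dim values raised to the floor. The gap between the closest mice of the groups, Fra-2 TG mouse 1 and wild-type mouse 4, was smaller than the range within either group. Without both mice numbered 4 the difference was 1.18.

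Rnf182, the member described in brain, was dim throughout. Its log2 levels were 4.40, 3.95, 5.39 and 5.03 in Fra-2 TG mice 1 to 4, against 4.01, 3.93, 4.20 and 3.03 in wild-type mice 1 to 4. Only Fra-2 TG mice 3 and 4 lay above the floor, and the groups overlapped. The means were 4.69 ± 0.65 in Fra-2 TG lungs and 3.79 ± 0.52 in wild-type lungs (SD, n = 4 each), a difference of 0.90 (SE 0.37). Both means lay under the floor, so no fold is given. Wild-type mouse 4 was the lowest of all, and without both mice numbered 4 the difference was 0.54.

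Rnf186, the gut and endoplasmic reticulum member, was the one member above the floor in all 8 mice. Its log2 levels were 11.11, 10.78, 10.90 and 10.53 in Fra-2 TG mice 1 to 4, against 10.87, 11.59, 10.86 and 11.12 in wild-type mice 1 to 4. The groups overlapped, with wild-type mouse 2 the highest and Fra-2 TG mouse 4 the lowest. The means were 10.83 ± 0.24 in Fra-2 TG lungs and 11.11 ± 0.34 in wild-type lungs (SD, n = 4 each), a difference of -0.28 (SE 0.20), which was -0.18 with both mice numbered 4 left out, and -0.12 with wild-type mouse 2 left out.

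**Figure D1:**
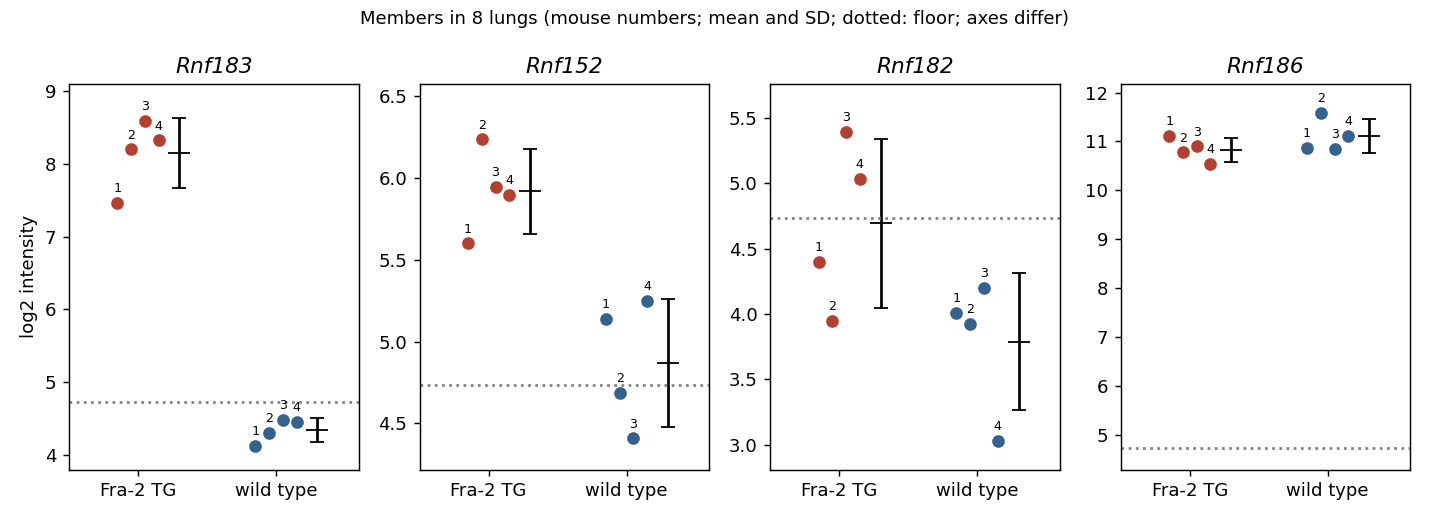
Log2 intensity of the 4 measured members (vertical axes, which differ between panels) in Fra-2 TG mice (red) and wild-type mice (blue), each point 1 mouse with its number; bars are mean and SD (n = 4) and the dotted line is the floor of 4.74. Rnf183 and Rnf152 do not overlap between the groups, Rnf182 lies around and under the floor, and Rnf186 overlaps.

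Across the family, 2 of 4 members had groups that did not overlap with the Fra-2 TG lungs higher, Rnf183 and Rnf152, and 0 the other way. Over all genes 3.99% had such values higher and 2.54% lower in Fra-2 TG lungs; the members were chosen with this contrast known, so nothing is read from the count. The spread within groups (the SD pooled over both) was 0.36 for Rnf183, 0.33 for Rnf152, 0.30 for Rnf186 and 0.59 for Rnf182, beside a median of 0.32 over all genes. Pearson's r between the members' deviations from the group means, over 8 mice, was -0.33 for Rnf183 and Rnf186, 0.23 for Rnf183 and Rnf152 and -0.22 for Rnf186 and Rnf152. These values describe arrays that share their normalization, and the wild-type values of Rnf183 lie under the floor; the pairs with Rnf182, mostly under the floor, are left out. As the plot of differences under each setting shows, Rnf183 stayed between 2.55 and 4.02, with the lowest values where a constant was added before the log2.

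**Figure D2:**
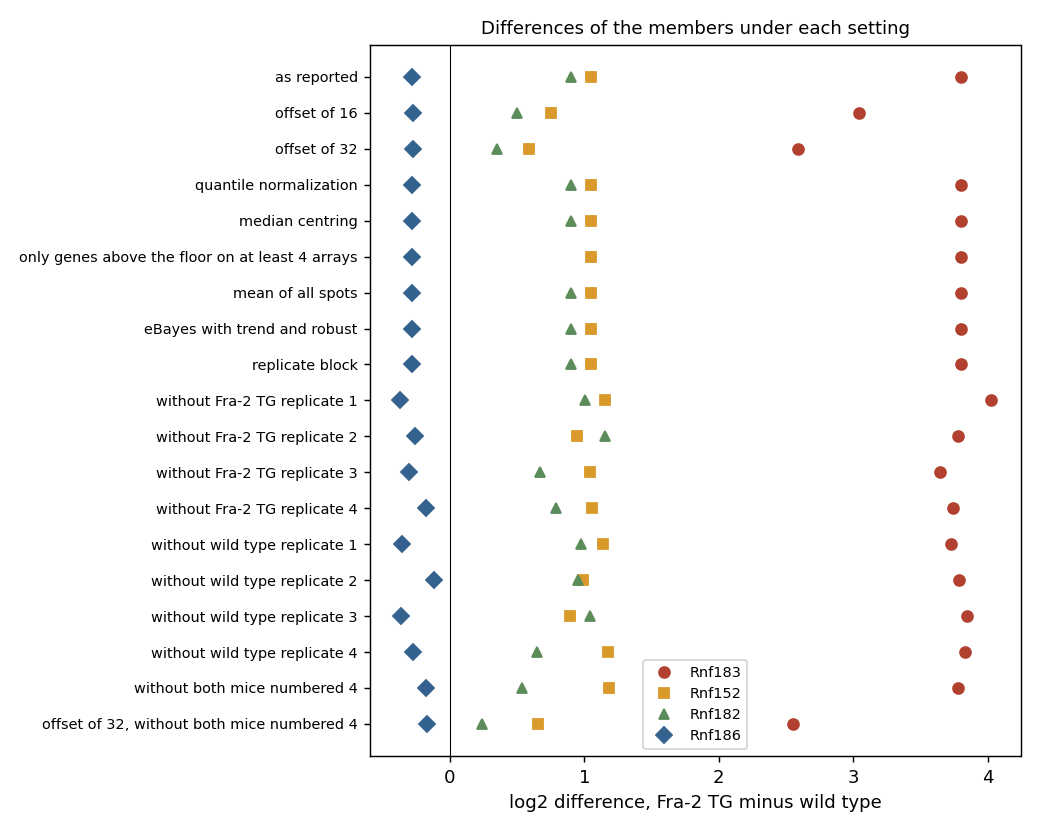
Log2 difference, Fra-2 TG minus wild type (horizontal axis), of the 4 measured members under each setting (rows; the top row is the value as reported). Rnf183 lies between 2.55 and 4.02 and moves left with an added constant of 16 or 32; Rnf186 lies between -0.37 and -0.12; Rnf182 has no value where only genes above the floor on at least 4 arrays are kept.

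The genes whose levels over the 8 mice were most like those of Rnf183, among 14512 candidates above the floor on at least 4 arrays, were Prss12, a serine protease (r = 0.993), Cd109, a membrane-anchored protein (0.989), Upp1, the uridine phosphorylase (0.988), Cnksr3, a scaffold protein (0.985), and Pcdhb3, a protocadherin (0.984). The wild-type values of Rnf183 behind this measure all lie under the floor. With 2 groups this far apart, r over 8 mice mostly ranks genes by how cleanly their groups separate, so the differences of these genes are given without a test. They were 2.28 (SE 0.21) for Prss12, 1.82 (SE 0.19) for Cd109, 2.84 (SE 0.24) for Upp1, 0.81 (SE 0.11) for Cnksr3 and 1.03 (SE 0.11) for Pcdhb3. Cnksr3 averaged 9.90 ± 0.11 in Fra-2 TG lungs and 9.10 ± 0.02 in wild-type lungs (SD, n = 4 each), and Pcdhb3 averaged 6.48 ± 0.05 in Fra-2 TG lungs and 5.45 ± 0.09 in wild-type lungs (SD, n = 4 each).

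When the group means were taken away, the most like genes were Elp6, a subunit of the Elongator complex (r = 0.947), Irf9, a transcription factor of interferon signalling (0.936), Ppp4c, a phosphatase subunit (0.935), Mgat4a, a glycosyltransferase (0.927), and Pik3cg, a lipid kinase of leukocytes (0.925). Their own differences between groups were small, from -0.04 for Irf9 to 0.46 for Pik3cg, and 0 of the 5 passed (limma adjusted p from 0.597 to 0.980; 0 at an unadjusted p under 0.05). In each of them Fra-2 TG mouse 1 was the lowest Fra-2 TG mouse, as in Rnf183; the wild-type deviations of Rnf183 are of values under the floor. For Rnf152, Dock1, an activator of Rac, came first both ways (r = 0.992 over the levels and 0.974 over the deviations), followed by Mtbp (0.968) over the levels and 2610035D17Rik (0.971) over the deviations. For Rnf186 they were Dhx34 (0.937) and Neu2 (0.925) over the levels, and Neu2 (0.963) and Rab9 (0.951) over the deviations. Rnf182 lay above the floor on too few arrays to be included. No p is given, since the best of so many genes over 8 mice is always high.

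**Figure D3:**
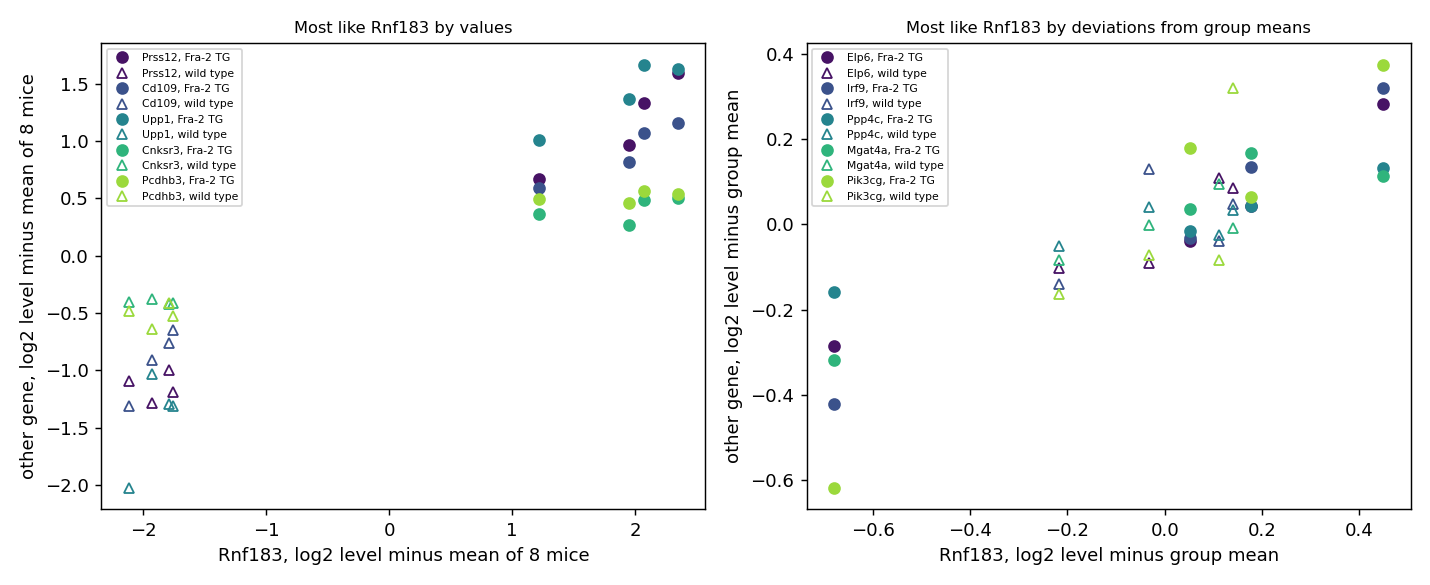
Log2 level of the 5 genes most like Rnf183 (vertical axis) against that of Rnf183 (horizontal axis), each point 1 mouse, circles Fra-2 TG and open triangles wild type. Left, levels minus the mean of 8 mice, where the groups form separate clouds; right, levels minus the group mean, where Fra-2 TG mouse 1 is the leftmost column of points.

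On chromosome 4, of the 5 measured protein-coding genes on each side of Rnf183, 10 in all, 0 passed by limma. As 0.216% of all genes passed, a count of 0 among 10 says little about the neighbours. Their differences ran from -0.54 to 0.21, with limma adjusted p from 0.431 to 0.987. The nearest were Prpf4, a splicing factor, at 0.21 (SE 0.14) and Wdr31 at 0.02 (SE 0.20). At an unadjusted limma p under 0.05 there was 1 of the 10, beside 9.15% of all genes. This was Bspry, named after its values were seen, at -0.54 (SE 0.18). Rnf186 and Rnf223 also lie on chromosome 4.

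Other membrane-bound ligases are set beside the family; 0.216% of all genes were called, so counts near 0 say little about lists of this size. Of 14 measured RING ligases of the endoplasmic reticulum membrane, 12 ligases with a protease-associated domain and 8 MARCH ligases, 0 passed in either direction (limma; 1 in all at an unadjusted p under 0.05, Rnf26), with list medians of -0.07, 0.02 and -0.10, beside 0.01 over all genes. Rnf26, which holds endosomes near the nucleus, stood at 11.43, 11.80, 11.68 and 11.58 in Fra-2 TG mice, against 11.12, 11.53, 11.31 and 11.04 in wild-type mice, a difference of 0.37 (SE 0.15, limma adjusted p = 0.507). Rnf139, a ligase of sterol-regulated degradation, differed by 0.29 (SE 0.15) and Tmem129, also of that membrane, by -0.18 (SE 0.12). Rnf43 and Znrf3, which remove Wnt receptors from the cell surface, differed by -0.13 (SE 0.13) and -0.16 (SE 0.20). Rnf133 lay under the floor in both groups. Marchf1, which clears MHC class II from antigen-presenting cells, differed by -0.53 (SE 0.32), Marchf4 by -0.39 (SE 0.17) and Marchf5, of mitochondria, by 0.12 (SE 0.12). Of 27 measured activating and conjugating enzymes 0 passed (limma; 0 at an unadjusted p under 0.05), with differences from -0.43 (Ube2l6) to 0.59 and a median of 0.04.

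Of 10 measured genes for proteins reported as targets of the family, mostly in human cells, 0 passed (limma; at an unadjusted p under 0.05, 2 were lower and 0 higher; median -0.05). Atp1b1, the beta subunit of the sodium pump and a reported target of RNF183, stood at 13.20, 13.21, 13.07 and 12.91 in Fra-2 TG mice, against 13.35, 13.64, 13.53 and 13.87 in wild-type mice. The groups did not overlap, as in 2.54% of all genes in this direction, and the difference of -0.50 (SE 0.15) had a limma adjusted p of 0.348. Sesn2, a stress-induced inhibitor of mTORC1 and a reported target of RNF186, differed by -0.60 (SE 0.21, limma adjusted p = 0.443). Bcl2l1, which encodes the survival protein Bcl-xL, differed by -0.26 (SE 0.23) and Tnfrsf10b, a death receptor, by 0.72 (SE 0.40); both are reported for RNF183. Bnip1, reported for RNF186, differed by 0.40 (SE 0.18), and Rraga, the GTPase reported for RNF152, by 0.20 (SE 0.11, limma adjusted p = 0.642). Rraga stood at 11.44, 11.49, 11.49 and 11.62 in Fra-2 TG mice, against 11.23, 11.41, 11.40 and 11.20 in wild-type mice, without overlap, as in 3.99% of all genes in this direction. Transcript levels do not show whether a protein is degraded. Atp6v0c, reported for RNF182, had no named spot.

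The unfolded protein response and the osmotic response are stress pathways known to act on or around Rnf183; their counts of calls too stand beside 0.216% of all genes. Of 30 measured genes of the unfolded protein response 0 passed (limma; 1 lower at an unadjusted p under 0.05, Atf4; median -0.04). Hspa5, the main chaperone of the endoplasmic reticulum, differed by -0.15 (SE 0.18), Xbp1, its spliced regulator, by 0.01 (SE 0.14), Ern1, the sensor that splices Xbp1, by -0.34 (SE 0.21), Atf4 by -0.34 (SE 0.14) and Ddit3, a factor of stress-induced death, by -0.54 (SE 0.24). Of 15 osmotic response genes 0 passed (limma; 1 higher at an unadjusted p under 0.05, Aqp1; median -0.04). Nfat5 stood at 5.75, 7.10, 6.33 and 6.60 in Fra-2 TG mice, against 6.42, 7.03, 6.47 and 7.40 in wild-type mice, a difference of -0.39 (SE 0.33, limma adjusted p = 0.763) with overlapping groups. The osmolyte transporter Slc6a12 differed by -0.49 (SE 0.24), the kinase Wnk4 by 0.22 (SE 0.14) and Aqp1, a water channel of lung capillaries, by 0.42 (SE 0.13, limma adjusted p = 0.377). Akr1b3, the aldose reductase, had no named spot.

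Amino acid sensing, cell death, NF-kB and AP-1 made up the other lists. Of 27 genes of amino acid sensing and mTORC1 0 passed (limma; 1 lower at an unadjusted p under 0.05, Sesn2; median 0.02), and of 16 death receptor and BCL2 genes 0 passed (0 at an unadjusted p under 0.05; median 0.18). Of 21 genes of the NF-kB pathway 0 passed (limma; 1 lower at an unadjusted p under 0.05; median 0.01): Il1b, an inflammatory cytokine, differed by -1.01 (SE 0.35) and Nfkbia, the inhibitor of NF-kB, by -0.38 (SE 0.18). Of 10 AP-1 subunit genes 0 passed (limma; at an unadjusted p under 0.05, 5 were lower and 0 higher; median -0.47), with Atf3 at -1.71 (SE 0.48), Fosb at -1.33 (SE 0.38), Fos at -0.87 (SE 0.32), the brighter Fosl2 spot at -0.75 (SE 0.31) and Jund, named after its values were seen, at -0.37 (SE 0.16). In all, 0 of 183 genes in 11 lists passed, beside 0.216% of all genes, a share too low for the count to set the lists apart, and 11 of them (6.01%) had an unadjusted p under 0.05, beside 9.15% of all genes.

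**Figure D4:**
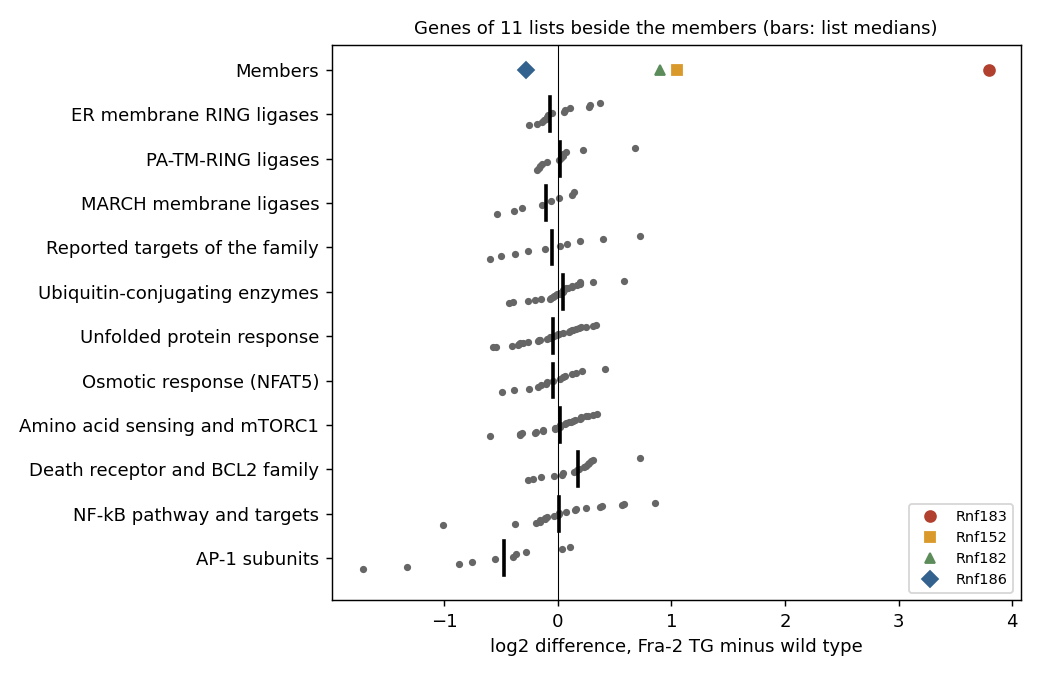
Log2 difference, Fra-2 TG minus wild type (horizontal axis), of the measured genes of 11 lists (grey points, 1 gene each; black bars are list medians) with the 4 measured members in the top row. Rnf183 at 3.80 lies to the right of all list genes, which run from -1.71 to 0.86. It was chosen by this difference, so nothing is read from its place.

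Markers of the cell types a lung sample can hold were followed beside Rnf183. Lung identity was plain: all 7 alveolar type 1, 9 type 2 and 5 club cell markers lay above the floor in all 8 mice. Of these Sftpc, Sftpd, Scgb1a1 and Cyp2f2 stood at or just under the top of the scanner's scale in all 8 mice and can hardly show a difference. The lowest of them was Cyp2f2 at 15.98 in Fra-2 TG mouse 4. Sftpb and Sftpa1 lay close to the top too, with means of 15.86 and 15.92 in Fra-2 TG lungs, against 15.96 and 15.97 in wild-type lungs. Over 80 markers in 12 lists, 3 passed by limma, 1 higher and 2 lower, beside 0.216% of all genes. In 11 the groups did not overlap, 6 higher and 5 lower in Fra-2 TG lungs, beside 3.99% and 2.54% of all genes. The lists were chosen with earlier results of these data known, so nothing is read from these counts. Marco, a scavenger receptor of alveolar macrophages, was lower by -2.08 (SE 0.22, limma adjusted p = 0.0105; 0.0525 without Fra-2 TG mouse 1 or 2). Ncr1, a receptor of natural killer cells, was lower by -2.12 (SE 0.24, limma adjusted p = 0.0150; 0.0521 to 0.0725 without Fra-2 TG mouse 1 or 4 or wild-type mouse 2, 3 or 4), with all Fra-2 TG values under the floor. The other 6 macrophage markers did not pass and all had higher means in Fra-2 TG lungs, by 0.19 (Siglecf) to 1.03 (Cd68). The other 3 measured leukocyte markers did not pass either, with Ptprc at 0.35, Cd3e at 0.41 and S100a8 at -0.44. Of 7 endothelial markers, Emcn and Tie1 differed by 1.18 (SE 0.33) and 0.57 (SE 0.18) without overlap and did not pass (limma adjusted p = 0.315 and 0.370). In the remaining endothelial markers the groups overlapped and none passed, with differences from -0.04 (Kdr) to 0.48 (Pecam1). The 7 goblet cell markers summed to 6769, 9443, 9819 and 86040 in Fra-2 TG mice 1 to 4, against 5721, 6103, 4472 and 14769 in wild-type mice 1 to 4. Fra-2 TG mouse 4 thus stood far above the others for goblet markers. Its sum holds a Clca1 value at the top of the scanner's scale. The 5 basal cell markers summed to 1920 to 2600 in Fra-2 TG mice and to 2444 to 3077 in wild-type mice. These linear sums mostly follow the brightest marker, Trp63, with log2 means of 10.80 in Fra-2 TG lungs and 11.32 in wild-type lungs. By log2 means, 4 of the 5 basal markers were higher in Fra-2 TG lungs and 1 was lower. Within that list Krt14, a basal keratin, was higher at 8.22, 7.10, 7.17 and 7.82 in Fra-2 TG mice, against 4.71, 4.91, 5.18 and 4.34 in wild-type mice (limma adjusted p = 0.0105, and just above the threshold without wild-type mouse 2). The other basal markers did not pass and went both ways: Krt15 differed by 0.75 (SE 0.15) and Trp63 by -0.52 (SE 0.17), both without overlap, Krt5 by 0.82 (SE 0.30) and Ngfr by 0.02 (SE 0.32).

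Markers of kidney and intestine, where Rnf183 and Rnf186 are best known, lay mostly under the floor. Of 8 measured kidney markers 7 had means under the floor in both groups, among them Umod and Slc12a1. The exception was Aqp2, above the floor in all 8 mice, with means of 6.00 in Fra-2 TG lungs and 5.97 in wild-type lungs. The list summed to 152 to 181 in Fra-2 TG mice and to 170 to 358 in wild-type mice. The sum of 358 was that of wild-type mouse 4, where Kap stood at 7.83, against 3.45, 3.62 and 3.96 in wild-type mice 1 to 3. The mean of Kap in wild-type lungs, 4.71, lay just under the floor. Of 9 intestinal markers 5 had means under the floor in both groups, among them Cdx2, and the list summed to 420 to 580 in Fra-2 TG mice and to 443 to 598 in wild-type mice. The part of cell makeup in the values of Rnf183 was not tested.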

How the data were processed

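Whole-lung RNA of 4 Fra-2 TG and 4 wild-type mice was labelled with Cy5 for single-colour Agilent arrays, per the labels' protocols; groups and mouse numbers come from the labels. The authors deposited an intensity on a linear scale for 62976 spots; R 2.15.1 and limma 3.14.4 are listed, with no role, per the submitters' processing notes. The arrays share their quantiles and appear background-subtracted, by a method not given in the sources used here. No flags for saturation or background were used. Gene symbols of the platform annotation (31465 spots) were updated through RefSeq accessions (29050 spots matched), and the brightest spot by mean log2 over 8 arrays stood for a gene. The log2 values, with no offset, were fitted with limma 3.58.1 in R 4.3.3 (lmFit and eBayes, group as the only term) and p-values adjusted by Benjamini-Hochberg over 20863 genes, with 0.05 as the threshold. Differences are Fra-2 TG minus wild type with the moderated SE.

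The members, the gene lists and the floor were chosen with earlier results of these data known. Named were all members, up to 3 list genes with the smallest p and a few list genes whatever their values, the genes most like a member, and the neighbours nearest to Rnf183. Where a group had values under the floor, each was raised to it and the fold is written "at least". The fit was tested on simulated data. The number of arrays limits the precision; each is a separate animal per the labels. Plots used matplotlib 3.10.9 under Python 3.11.15.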

Additional observations from a re-analysis of the deposited data

Results flagged for a closer look

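Among the members no mouse stood apart from its group by Dixon's criterion for 4 samples (the gap to the nearest mouse over the range of the group). The check also covered the genes most like a member, the 3 genes of each pathway list with the smallest p and a few list genes whatever their values. With the members, 8 of 116 groups had a mouse set apart, where chance gives about 1 in 20. Cell type markers, neighbours of Rnf183 and any other named list genes were not checked. In Fra-2 TG lungs mouse 4 was set apart for Fos (11.66 against 10.48 to 10.66 in the other mice; ratio 0.847), Sesn1 (11.19 against 10.71 to 10.78; 0.843), Ube2l6 (10.57 against 9.78 to 9.88; 0.865) and Tnfrsf10b (9.98 against 8.19 to 8.44; 0.861). In wild-type lungs mouse 4 was set apart for Ube2b (13.56 against 13.22 to 13.24; 0.929) and Tnfrsf1a (12.28 against 12.72 to 12.75; 0.942), mouse 2 for Aqp1 (14.93 against 14.79 to 14.80; 0.891) and mouse 1 for Rnf133 (2.55 against 3.65 to 3.73, all under the floor; 0.933). So 6 of the 8 concern a mouse numbered 4.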

How the results depend on the processing

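Rnf183 kept its sign under all 18 alternatives and Rnf152, Rnf182 and Rnf186 kept theirs under all in which they had a value. Rnf182 had none where only genes above the floor on at least 4 arrays were kept. That filter, the mean of all spots, the trended and robust variances and the replicate block cannot move the difference of a gene with 1 spot. Each measured member has 1 spot. Rnf183 was also chosen by this difference, so nothing is read from its kept sign. An offset of 16 before the log2 brought Rnf183 to 3.04; an offset of 32 brought it to 2.59 and Rnf152 to 0.59; that offset without both mice numbered 4 gave 2.55 for Rnf183, 0.66 for Rnf152 and 0.24 for Rnf182. An added constant shrinks dim differences by construction. With 1 mouse left out, Rnf183 ran from 3.65 to 4.02, Rnf152 from 0.89 to 1.17, Rnf182 from 0.65 to 1.15 and Rnf186 from -0.37 to -0.12. The 45 called genes became 80 and 88 with offsets of 16 and 32. They became 73 with the filter on dim genes and 118 with trended and robust variances. There were 17 when both mice numbered 4 were left out and 200 when the offset of 32 was added to that. With 1 mouse left out there were 17 to 38. These were 29, 27 and 20 without Fra-2 TG mouse 1, 2 or 3, and 27, 17 and 20 without wild-type mouse 1, 2 or 3. Why the counts changed between these settings was not tested. List genes called were 0 in all of these but the offset of 32 without both mice numbered 4, with 4: Ddit3 (-0.76), Atf3 (-1.74), Ube2l6 (-0.54) and Rhebl1 (0.53). Neighbours of Rnf183 were called in none. The labels do not say whether mouse numbers pair the samples. Same-numbered deviations correlated at only -0.01 to 0.05. Still, 3 of 4 Fra-2 TG mice and 3 of 4 wild-type mice were closest to the mouse of their number in the other group. Whether the samples are paired was thus not settled. The replicate block left all differences as they were and called 5 genes. Quantile normalization and median centring tested little, since the arrays already shared 1 distribution. Intensities near the floor limit Rnf182 and the wild-type values of Rnf183.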

Other observations

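Vil1, the actin-bundling protein of brush borders, was picked from the intestinal list after its values were seen. It stood at 5.45, 6.78, 6.83 and 6.12 in Fra-2 TG mice 1 to 4, against 5.06, 5.41, 5.07 and 4.09 in wild-type mice 1 to 4. The groups did not overlap, with Fra-2 TG mouse 1 close to wild-type mouse 2. The difference of 1.39 (SE 0.38) did not pass (limma adjusted p = 0.304), while the other intestinal markers differed by -0.51 to 0.50. Clca1, a secreted goblet cell protein, stood at 9.51, 12.02 and 12.44 in Fra-2 TG mice 1 to 3, against 6.58, 6.10, 5.59 and 10.10 in wild-type mice 1 to 4, with Fra-2 TG mouse 4 at the top of the scanner's scale and wild-type mouse 4 above Fra-2 TG mouse 1; it did not pass (limma adjusted p = 0.285), and the value at the top of the scale is a lower bound.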
